A study of Homo sapiens with 6 samples.

Results

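The clustered protocadherins are the cell-surface cadherin-like genes that lie in the alpha, beta and gamma clusters of human chromosome 5. The members were chosen by gene symbol alone, as every row named PCDHA or PCDHAC, PCDHB, or PCDHGA, PCDHGB or PCDHGC followed by a number. This gave 54 of the 37887 rows of the table, made up of 16 alpha, 16 beta, 12 gamma A, 7 gamma B and 3 gamma C genes. The cells were of the MDA-MB-436 line, an established line of triple-negative breast cancer, with a stable tet-inducible shRNA against MUC1 (tet-MUC1 shRNA). Cells of both groups carried this vector. The 3 control libraries came from cells given 0.1% DMSO as vehicle, and the 3 shMUC1 libraries from cells given 500 ng/ml doxycycline, the drug that switches the shRNA on. The comparison addressed which transcripts depend on MUC1-C, the transmembrane subunit of the MUC1 protein that was silenced.

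Several features limit the groups as a model. The vehicle group is titled as a control shRNA, but by its treatment label and the design it was the same MUC1 shRNA line given DMSO, and it was read that way. No doxycycline-treated cells without the MUC1 shRNA were analysed here, so effects of the drug and of MUC1 silencing cannot be told apart, and neither can fewer cells of a kind and less RNA per cell. How long this line was treated is not given in the sources used here, and triplicate cultures are the only account of the replicates, so p-values measure the spread between these libraries, which may be technical.

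In neurons, clustered protocadherins act as a surface barcode. Each variable first exon has a promoter of its own, a neuron uses a small set of them, and the proteins bind like proteins on neighbouring membranes, which lets the branches of a neuron tell themselves from others. Alpha and gamma variable exons are spliced to constant exons that encode a shared cytoplasmic tail, while beta genes have no such tail. Promoter use depends on DNA looping by CTCF and cohesin and is silenced by DNA methylation, and the C-type genes (PCDHAC1, PCDHAC2, PCDHGC3, PCDHGC4 and PCDHGC5) are known to be regulated apart from the others.

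Most of these promoters share a short element with the letters CGCT at its core, close to the start of transcription. The promoter windows, 250 bases before to 50 after the RefSeq start (GRCh38.p14), were found for 47 of the 54 members. The letters CGCT, on either strand, were in 46 of these 47 windows and in 70.0% of all 35116 promoter windows of the table. The 30 bases around the copy most like those of the other members are given for part of the members. They are plus strand, 5′ to 3′, with CGCT in capitals, so that the alpha, beta and gamma forms can be compared. PCDHGB1, PCDHGA4, PCDHGA6 and PCDHGB7, which also fell, are not shown. The copy in PCDHGB7 was less like the rest, at 37.6% identity to other members beside a gamma B median of 56.8%. The copies shown for PCDHAC1, at 36.7%, and PCDHAC2, at 46.3%, were also less like the rest, beside an alpha median of 55.3%. They may not be forms of the shared element. Such a match is a description of letters and not a binding site.
PCDHA4 (chr5:140806982-140807011): agccacatgatgtCGCTctttaccacaaaa
PCDHAC1 (chr5:140926223-140926252): tagaaggtgtggtCGCTcacgttcaccgtc
PCDHAC2 (chr5:140966368-140966397): agcagtccgggttCGCTgtccgccacttcg
PCDHB2 (chr5:141094547-141094576): agacgcggggtggCGCTgcagccttagaag
PCDHB5 (chr5:141135182-141135211): ggacgcctggtggCGCTgcaggctaagagt
PCDHB16 (chr5:141182313-141182342): gaacgcgtggtggCGCTgcaggttaagatg
PCDHB9 (chr5:141187077-141187106): agccacaaggtggCGCTgcagactgaagag
PCDHB14 (chr5:141223266-141223295): agacacatggtggCGCTacaggataagacg
PCDHGA9 (chr5:141402717-141402746): ggactctgagcgcCGCTgttgatcaactct
PCDHGA10 (chr5:141412934-141412963): ggactctgagcgcCGCTgttcacctactag
PCDHGB4 (chr5:141387620-141387649): tgactctgggcgcCGCTgttggccaaagtg
PCDHGB5 (chr5:141397866-141397895): tgactctgggcgcCGCTgttggccaaagtg
PCDHGB6 (chr5:141407927-141407956): agcctctgggcgcCGCTgtcggccagtgca
PCDHGB2 (chr5:141359924-141359953): aacctctgagcgtCGCTgttggtcaaaaga
PCDHGC3 (chr5:141475883-141475912): ggactctgtgtgcCGCTgtcggccaatgaa
PCDHGC4 (chr5:141484955-141484984): tgagcccgggagcCGCTgtctgccaatcgg
The flanks of the core were compared through words of 8 letters. Each was chosen from these same windows for a cluster, because many of its members held it. Its excess there was therefore set by the choice. The letters ATGTCGCT, on either strand, were in 9 of 13 alpha windows and 0.234% of all windows. GGTGGCGC, which overlaps the core, was in 13 of 14 beta windows and 2.23% of all windows. CGCCGCTG was in 6 of 11 gamma A and 4 of 7 gamma B windows and 4.29% of all windows, and CTCTGGGC in 5 of 7 gamma B windows and 4.04% of all. Counted from its first C, the core lay at a median position of -55 relative to the start in alpha, -61.5 in beta, -46 in gamma A and -65 in gamma B genes. The core letters did not divide the members by response, since all 14 members that fell and all 11 that were tested and not called held CGCT. Of the longer words, GGTGGCGC was in the windows of 4 members that fell and 4 not called, CGCCGCTG of 5 and 2, CTCTGGGC of 4 and 0, and ATGTCGCT of 0 and 2. As these words were chosen by cluster, their splits cannot be told apart from those of the clusters. PCDHGB4 and PCDHGB5 had the same 30 letters. The whole window of PCDHGB5, the member with the highest level per kilobase, is given with that element in capitals.
PCDHGB5 (chr5:141397697-141397996): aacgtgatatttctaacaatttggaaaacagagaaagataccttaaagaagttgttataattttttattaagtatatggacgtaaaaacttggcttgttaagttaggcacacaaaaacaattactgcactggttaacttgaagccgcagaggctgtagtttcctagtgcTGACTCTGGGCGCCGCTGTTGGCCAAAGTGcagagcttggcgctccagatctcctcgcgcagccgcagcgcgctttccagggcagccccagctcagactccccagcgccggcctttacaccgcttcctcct

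Library totals ran from 18678307 to 27825546 counts. Levels are in CPM, counts per 1000000 of the scaled library size. A count of 0 allows up to 3 counts, or 0.161 CPM where depth was lowest and 0.108 CPM where it was highest, a limit that covers counting error alone, as reads had no molecular identifiers. Of the member counts from 1 to 20, 76.6% were even numbers, against 68.8% to 70.5% over all genes of a library. If both mates of a pair were counted, counts are not independent and the limit of 3 is too low. MUC1, the targeted gene, was at 4.24, 3.45 and 3.95 CPM in control and at 2.60, 1.98 and 1.83 CPM in shMUC1 libraries, a log2 fold change of -0.84 (SE 0.214, adjusted p = 0.00119 with the quasi-likelihood test of edgeR and Benjamini-Hochberg adjustment, as for every adjusted p given here). The groups did not overlap, so the labels held for this gene. ESR1 and PGR, the hormone receptors a triple-negative line lacks, reached at most 0.64 and 0.16 CPM in any library. ERBB2, also listed as low in such a line, was not near the floor. It was at 44.7 ± 2.40 CPM in control and 38.9 ± 0.462 CPM in shMUC1 libraries (SD, n = 3 per group). Its log2 fold change was -0.20 (adjusted p = 0.0074). VIM, a mesenchymal filament gene, fell from 717 ± 26.03 to 417 ± 25.2 CPM (SD, n = 3 per group) and CDH1, the epithelial cadherin, rose by 3.55 on the log2 scale (adjusted p = 2.5e-12). In all, 4 of 7 tested markers of the line's state rose and 3 fell (25.2% and 23.6% of all tested genes did).

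Shared exons limit what a count of an alpha or gamma gene can mean. In the GENCODE annotation, protein-coding alpha genes share at least 2866 exon bases with other members and gamma genes 2181, mostly the constant exons, and reads there cannot be given to a single gene. PCDHA1, PCDHA8 and PCDHGA3 were at 0 in all 6 libraries although they share these exons with genes that had reads, so shared reads were not added to every member, and the counts stand for each gene's own, mostly variable, sequence. Levels are therefore given per kilobase of exon sequence that belongs to no other member. PCDHGB4 and PCDHGA8 each have 4447 exon bases that another member also holds, more than the other gamma genes, PCDHA10 has 5222, and PCDHA14, a pseudogene, has no exon base of its own, so their levels are uncertain. Near-identical stretches also occur. The share of the 50-base words of a gene's own exons also held by another member or a cluster pseudogene reached 45.1% in PCDHB8 and 34.2% in PCDHB10. It was 0 in all 5 C-type genes.

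Few members carried most of the RNA. Per kilobase of own exon and over all 6 libraries, PCDHGB5 had the highest level at 5.78 CPM per kb, followed by PCDHGC3 at 3.03, PCDHB2 at 2.13, PCDHB5 at 1.74, PCDHGA10 at 1.66 and PCDHGA9 at 1.65 CPM per kb. The median member stood at 0.0834 CPM per kb. The order changed between groups. PCDHGA9, at 2.36 CPM per kb in control, stood above PCDHB5 (2.10), PCDHB2 (2.01) and PCDHGA10 (1.89), and at 0.930 CPM per kb in shMUC1 cells it stood below all 3 (1.38, 2.26 and 1.43 CPM per kb). PCDHGB5 alone gave 18.1% of all clustered protocadherin CPM in control and 19.6% in shMUC1 cells, and the 5 highest members of each group gave 53.0% and 63.6%. PCDHGB4, with the same 30-base element as PCDHGB5, was at 0.131 CPM per kb, with the limit on shared exons given above. At the other end, 5 members (PCDHA1, PCDHA8, PCDHA14, PCDHB1 and PCDHGA3) were at 0 in every library.

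**Figure D1:**
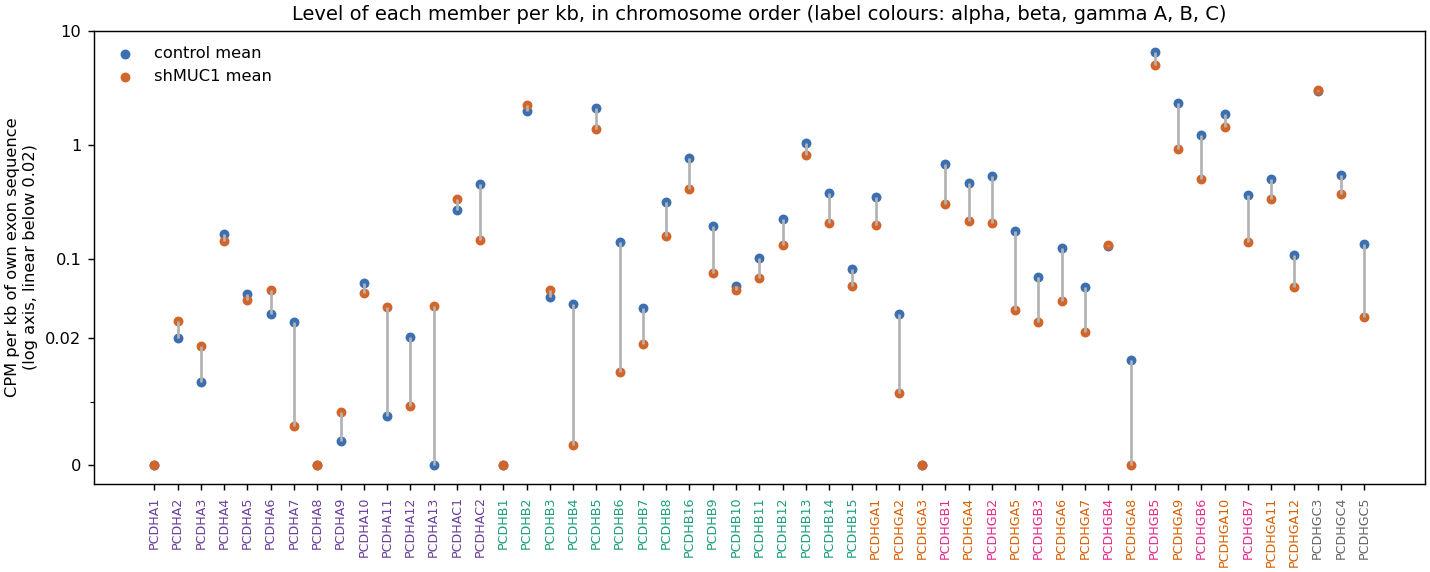
Mean level of 53 members in control and shMUC1 libraries (n = 3 per group), in CPM per kilobase of own exon sequence on a log axis that is linear below 0.02, in chromosome order from alpha to gamma. PCDHA14, which has no own exon sequence, is left out. Beta and gamma members reach higher levels than alpha members, and most control points lie above the shMUC1 points.

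Summed over all members, clustered protocadherin RNA was lower in the shMUC1 libraries. The fall was largest in gamma A and gamma B, and the groups overlapped in alpha and gamma C. The sum over all 54 members was 95.3, 93.0 and 101 CPM in control and 67.2, 72.4 and 67.1 CPM in shMUC1 libraries, or 71.5% of the control mean, with no overlap between the groups. Gamma A genes summed to 21.0 ± 1.94 CPM in control and 12.0 ± 0.608 CPM in shMUC1 libraries, a log2 ratio of -0.81. Gamma B genes summed to 27.7 ± 0.982 and 17.9 ± 1.01 CPM, a log2 ratio of -0.63. Beta genes went from 30.2 ± 1.99 to 23.2 ± 1.04 CPM, a log2 ratio of -0.38, and in all these 3 clusters every shMUC1 library lay below every control library. Alpha genes, at 5.65 ± 0.668 and 4.71 ± 1.08 CPM, and gamma C genes, at 11.7 ± 1.19 and 11.05 ± 0.548 CPM, overlapped between the groups (all values mean ± SD, n = 3 per group). The sums are described without a test.

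**Figure D2:**
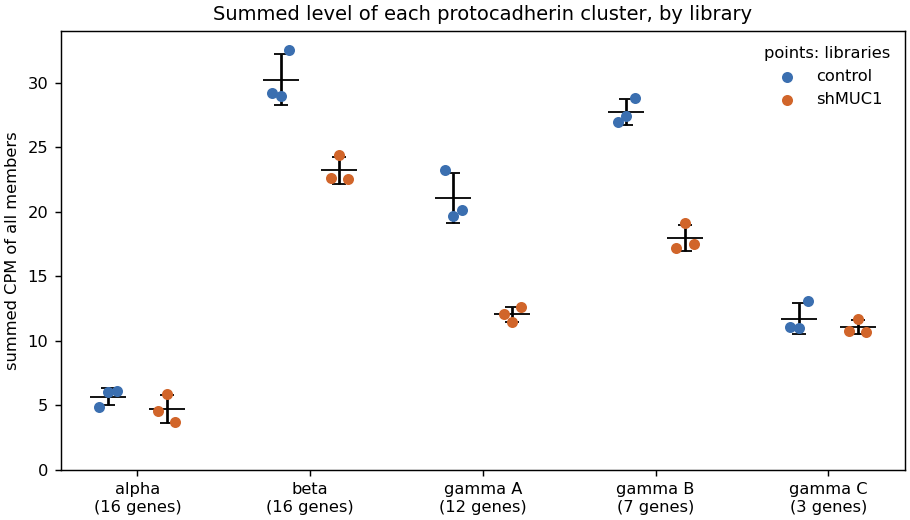
Summed CPM of all members of each cluster in every library (points), with the group mean and SD (n = 3). The shMUC1 points lie below the control points in beta, gamma A and gamma B, and overlap them in alpha and gamma C.

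Of the 54 members, 25 had enough reads to be tested, 14 of these fell in shMUC1 cells and 0 rose. Over all 15355 genes tested, 23.6% were called lower and 25.2% higher at an adjusted p under 0.05. With a fold change over 2 as well, 9 members fell and 0 rose, against 3.74% of all tested genes called lower and 2.21% called higher. The fitted log2 fold change was below 0 in 22 of the 25 members and its median was -0.84, beside 0.00058 over all tested genes. In 12 of the 25, every shMUC1 library lay below every control library, and in 0 above, as against 26.8% and 28.1% of all tested genes. Members that pass a filter on low counts through the control group alone are drawn towards a fall: 6 of the 25 had at least 10 counts in every control but not every shMUC1 library (4 fell), and 0 had the reverse. Among the 17 with at least 10 counts in all 6 libraries, 9 fell. With a mean of at least 50 counts required, 9 members were tested, 6 fell and the median was -0.42. DESeq2 called 10 members lower, 8 of them among the 14. The 6 it did not call were PCDHB9 (adjusted p = 0.0669), PCDHB14 (0.0724), PCDHGA10 (0.0840), PCDHGA4 (0.0957), PCDHGA6 (0.110) and PCDHGB7 (0.431). Leaving out shMUC1 replicate 2 brought the calls from 14 to 9 and those past 2-fold from 9 to 5.

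**Figure D3:**
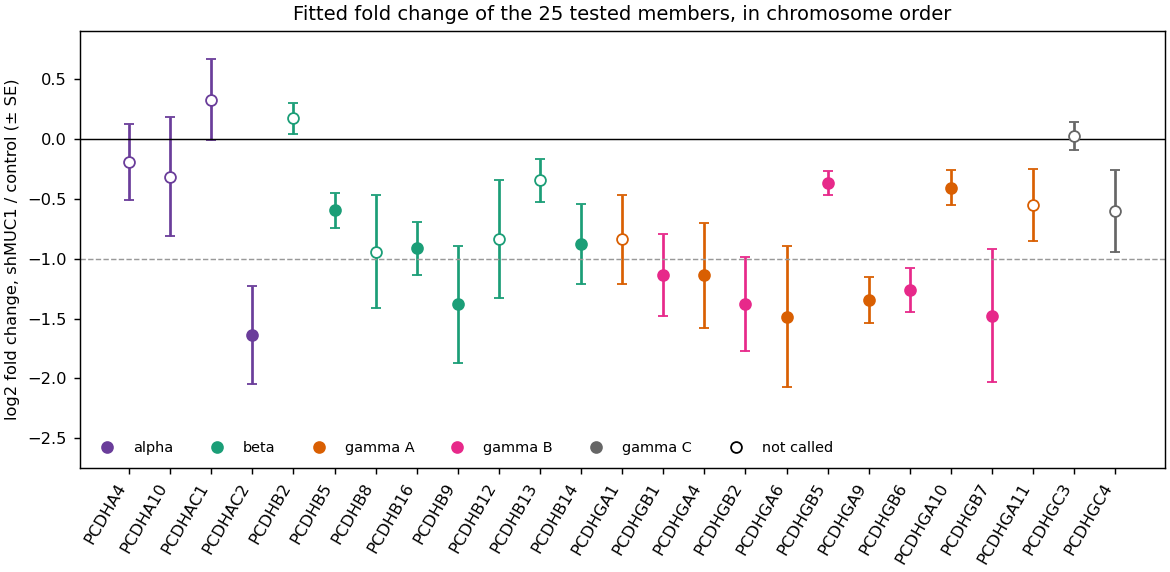
Fitted log2 fold change (shMUC1 over control, ± SE) of the 25 tested members in chromosome order, coloured by cluster, with filled points for the 14 called lower and a dashed line at a 2-fold fall. The points run from -1.64 (PCDHAC2) to 0.33 (PCDHAC1), and all 5 gamma B points are filled.

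All 5 tested gamma B genes fell, 4 of them past 2-fold, with a median log2 fold change of -1.26. PCDHGB6 was at 5.92, 5.70 and 5.30 CPM in control and at 2.46, 2.44 and 2.10 CPM in shMUC1 libraries, a log2 fold change of -1.26 (SE 0.181, adjusted p = 2.9e-07). Both groups were tight and well apart. PCDHGB5, the leading member, was at 16.8, 17.1 and 18.3 CPM in control and at 12.1, 15.1 and 13.3 CPM in shMUC1 libraries. Its log2 fold change of -0.37 (SE 0.0989, adjusted p = 0.00211) was called, and the groups did not overlap. PCDHGB2 had 22, 39 and 40 counts in control and 16, 10 and 12 in shMUC1 libraries, a log2 fold change of -1.38 (adjusted p = 0.00344). PCDHGB1 had 42, 39 and 47 counts in control and 31, 17 and 11 in shMUC1 libraries, a log2 fold change of -1.13 (adjusted p = 0.00585). In both genes each shMUC1 library was below all controls. PCDHGB7 had 11, 23 and 42 counts in control and 13, 0 and 13 in shMUC1 libraries, so the groups overlapped. Its log2 fold change of -1.48 (adjusted p = 0.0264) was not called without shMUC1 replicate 2, at -0.85 and an adjusted p of 0.184, without control replicate 3, at -0.97 and an adjusted p of 0.247, or with DESeq2 (adjusted p = 0.431). The other 2 gamma B genes were not tested. PCDHGB4 was level, at 0.320 ± 0.0492 CPM in control and 0.324 ± 0.157 CPM in shMUC1 libraries. PCDHGB3 was at 0.179 ± 0.243 and 0.0723 ± 0.125 CPM (SD, n = 3 per group).

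Of the 6 tested gamma A genes, 4 fell, with a median log2 fold change of -0.99. PCDHGA9 was at 5.33, 5.78 and 7.08 CPM in control and at 1.84, 3.06 and 2.26 CPM in shMUC1 libraries. This fall of -1.35 on the log2 scale (SE 0.192, adjusted p = 2.6e-07) was 2.54-fold, with no overlap. PCDHGA10, at 9.94, 8.86 and 6.54 CPM in control and 6.58, 5.28 and 7.30 CPM in shMUC1 libraries, showed overlapping groups. Its log2 fold change was -0.41 (SE 0.149, adjusted p = 0.0227), and it was not called without control replicate 1 (adjusted p = 0.182), control replicate 2 (0.0649) or shMUC1 replicate 2 (0.168), or with DESeq2. PCDHGA4 had 28, 28 and 34 counts in control and 21, 3 and 16 in shMUC1 libraries, a log2 fold change of -1.14 (adjusted p = 0.0305) that became -0.63 (adjusted p = 0.228) without shMUC1 replicate 2. It was also not called without control replicate 1 (0.0749) or control replicate 3 (0.0814), or with DESeq2. PCDHGA6 had 28, 6 and 16 counts in control and 12, 2 and 4 in shMUC1 libraries, which overlap. Its log2 fold change of -1.49 (adjusted p = 0.0353) fell short of the threshold with DESeq2 and without any of 4 libraries (control replicates 1 and 3, shMUC1 replicates 2 and 3), and was -0.80 (adjusted p = 0.369) without control replicate 1. PCDHGA1 and PCDHGA11 were not called, at -0.84 (adjusted p = 0.0614) and -0.55 (adjusted p = 0.130), although the PCDHGA11 groups did not overlap.

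The gamma C genes lie at the end of the gamma cluster and share its constant exons. PCDHGC3 was at 9.80, 8.94 and 10.6 CPM in control and at 9.76, 10.7 and 9.29 CPM in shMUC1 libraries, with a log2 fold change of 0.02 (SE 0.117, adjusted p = 0.888). The libraries of both groups were interleaved. PCDHGC4, which neurons need for survival, had 22, 45 and 45 counts in control and 26, 22 and 24 in shMUC1 libraries, a log2 fold change of -0.60 (SE 0.344, adjusted p = 0.152) that was not called. Counts of PCDHGC5 were too low to test, at 0.378 ± 0.281 CPM in control and 0.0858 ± 0.0189 CPM in shMUC1 libraries (SD, n = 3 per group).

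In the beta cluster, whose genes are single coding exons without a shared tail, 4 of 8 tested members fell and the median log2 fold change was -0.86. PCDHB5 was at 7.70, 7.47 and 6.27 CPM in control and at 4.70, 5.01 and 4.404 CPM in shMUC1 libraries, a log2 fold change of -0.60 (SE 0.148, adjusted p = 0.000954). PCDHB16 was at 3.24, 3.36 and 4.02 CPM in control and at 1.99, 1.86 and 1.77 CPM in shMUC1 libraries, a log2 fold change of -0.91 (SE 0.223, adjusted p = 0.000793). Neither gene showed overlap, and both stayed called in all 13 alternative analyses. PCDHB14 had 48, 30 and 48 counts in control and 24, 22 and 22 in shMUC1 libraries, a log2 fold change of -0.87 (adjusted p = 0.0288). It was not called without control replicate 1 (0.139), control replicate 3 (0.0754), shMUC1 replicate 1 (0.0861) or shMUC1 replicate 2 (0.080), or with DESeq2. PCDHB9 had 15, 23 and 20 counts in control and 12, 4 and 6 in shMUC1 libraries, a log2 fold change of -1.38 (adjusted p = 0.0185), not called without control replicate 2 (0.0794) or shMUC1 replicate 2 (0.113), or with DESeq2. PCDHB2, the highest beta gene per kilobase, stood apart from these, at 8.25, 7.96 and 8.63 CPM in control and 8.14, 11.4 and 8.43 CPM in shMUC1 libraries. Its log2 fold change was 0.17 (SE 0.130, adjusted p = 0.286), and the groups overlapped. Leaving out shMUC1 replicate 2 gave 0.00067, and leaving out shMUC1 replicate 1 gave 0.27. PCDHB8, PCDHB12 and PCDHB13 were not called either, with log2 fold changes of -0.94, -0.84 and -0.34.

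Alpha genes had the smallest summed level of the 5 clusters. Only the C-type genes and the pair PCDHA4 and PCDHA10 could be tested, and 1 of these 4 was called. PCDHAC2, which serotonin neurons need to space their axons, had 26, 58 and 30 counts in control and 8, 18 and 10 in shMUC1 libraries. Its log2 fold change of -1.64 (SE 0.411, adjusted p = 0.00106) was a 3.11-fold fall with no overlap between groups, and ranged from -1.98 to -1.21 when a library was left out. Per kilobase, PCDHAC2 was at 0.456 CPM per kb in control and 0.147 in shMUC1 cells, and PCDHAC1, the neighbouring C-type gene, at 0.267 and 0.333. PCDHAC1 was at 1.003, 0.98 and 1.28 CPM in control and at 1.37, 1.63 and 1.07 CPM in shMUC1 libraries, a log2 fold change of 0.33 (SE 0.337, adjusted p = 0.446). PCDHA4 was at 1.64, 1.48 and 2.17 CPM in control and at 1.37, 2.41 and 0.75 CPM in shMUC1 libraries, with a log2 fold change of -0.19 (SE 0.320, adjusted p = 0.657). The widest spread of its values was among the shMUC1 libraries. PCDHA10 was at 0.610 ± 0.245 and 0.496 ± 0.262 CPM (SD, n = 3 per group), with an adjusted p of 0.639.

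**Figure D4:**
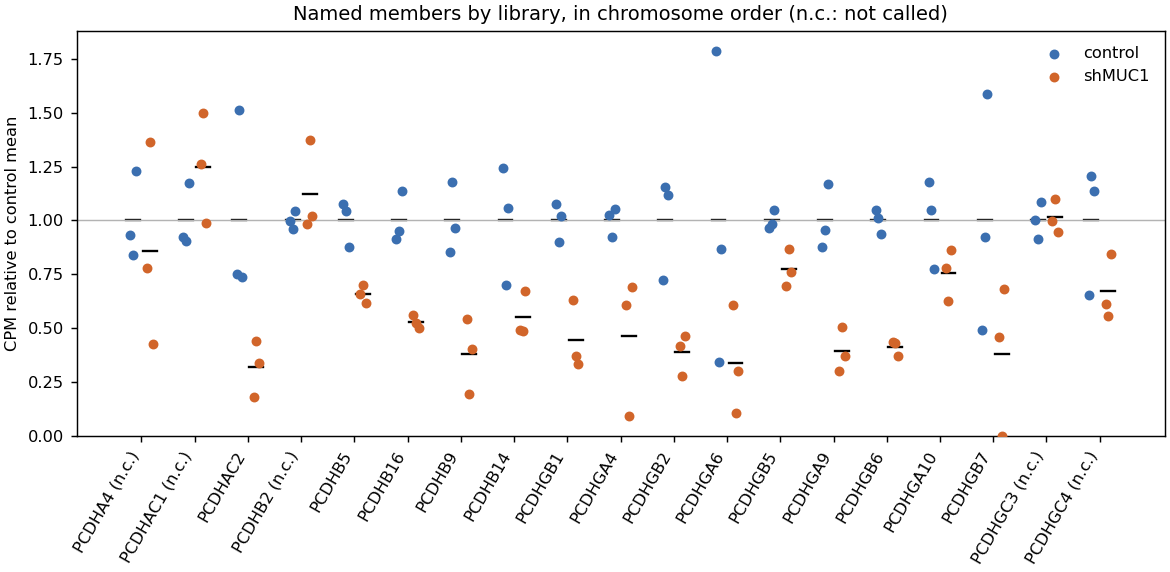
CPM of 19 members in every library (points), divided by the control mean of that gene, in chromosome order, with the group means as bars. Genes marked n.c. were not called. The shMUC1 points lie below all control points in most called genes, and overlap them in PCDHGA6, PCDHGA10 and PCDHGB7.

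The 29 members not tested held few reads but moved the same way in sum. Of these, 5 were at 0 and 24 had between 1 and 19 counts in their highest library. The mean was lower in shMUC1 libraries for 16 of the 24 and higher for 8, of which 6 were alpha genes. Together they summed to 4.62 ± 0.634 CPM in control and 2.69 ± 0.661 CPM in shMUC1 libraries (SD, n = 3 per group), without overlap. The 11 tested members that were not called summed to 33.2 ± 3.47 and 30.7 ± 2.50 CPM, which overlapped. Without a filter on low counts, PCDHB6 and PCDHGA5 were also called lower.

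The size of the change was only loosely related to level and place. Across the 25 tested members, which share libraries, depth and in part sequence, the log2 fold change had a Pearson r of 0.33 and a Spearman rho of 0.32 with the log2 level per kilobase. With the order along the clusters r was -0.25 and rho -0.22.

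A 7-letter word, ATCAGTA, was taken from an earlier scan of these same data, so its excess among genes that fell is not an independent result. Of the 13023 tested genes with an annotated 3′ untranslated region, 451 fell past 2-fold. The word was in that region of 23.3% of these and of 12.4% of the others. It was in the untranslated region of all 15 protein-coding alpha genes, which share their last exon, and of 0 of 16 beta and 0 of 22 gamma genes. Of the 14 members that fell, 1 held it (PCDHAC2), and of the 11 tested and not called, 3 did.

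A list of CTCF, cohesin and promoter-choice factors, some of them general chromatin genes, was measured in the same fit. Whether each acts on protocadherin promoters in these cells was not tested. Of the 21 genes listed, all tested, 10 fell and 3 rose (23.6% and 25.2% of all tested genes did). Their median log2 fold change was -0.09. CTCF, the looping factor that binds the promoters and their enhancers, was at 155 ± 7.93 CPM in control and 157 ± 4.18 CPM in shMUC1 libraries, with a log2 fold change of 0.02 (adjusted p = 0.734). RAD21, a cohesin subunit, was at 1225 ± 31.4 and 1240 ± 16.9 CPM, likewise 0.02 (adjusted p = 0.639), and both values turned slightly negative with library totals as the only scaling. SMCHD1, a repressor of the clusters, fell by 0.48 on the log2 scale, from 174 ± 2.56 to 125 ± 4.74 CPM (adjusted p = 4.7e-13). DNMT3B, the DNA methyltransferase that methylates protocadherin promoters, was at 18.2, 19.1 and 17.3 CPM in control and at 8.71, 8.57 and 11.2 CPM in shMUC1 libraries, the largest fall of the list at -0.95 (adjusted p = 1.9e-09). SETDB1, a histone methyltransferase, had the largest rise, of 0.18 (adjusted p = 0.00711). Means are given ± SD with n = 3 per group. The part of these genes in the protocadherin values was not tested.

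Of 12 protocadherins outside the clusters, 3 were tested, 2 fell (PCDH7 and PCDH10) and 0 rose. Of all tested genes, 23.6% fell and 25.2% rose. PCDH8, PCDH9, PCDH18 and PCDH20 were at 0 in all libraries. PCDH7, named because so few fell, was at 17.2, 18.5 and 20.3 CPM in control and at 14.0, 16.1 and 13.1 CPM in shMUC1 libraries, a log2 fold change of -0.37 (adjusted p = 0.0017) with no overlap. PCDH10 had the larger fall, from 26, 28 and 21 counts in control to 13, 14 and 4 in shMUC1 libraries, a log2 fold change of -1.29 (adjusted p = 0.0132). It was not called without control replicate 1 (adjusted p = 0.0516) or shMUC1 replicate 3 (0.0719). Among 20 genes whose products cleave protocadherins or act below their tails, 8 rose and 3 fell with a median log2 fold change of 0.07, beside the same shares of all tested genes. WASF1, of the WAVE complex that builds actin branches, rose most, from 50.7 ± 3.03 to 75.0 ± 2.59 CPM (SD, n = 3 per group), a log2 fold change of 0.56 (adjusted p = 2.8e-11). PSENEN, a subunit of the gamma-secretase that cuts the proteins, had the largest fall of that list at -0.47 (adjusted p = 0.0487), which 8 of 13 alternatives did not call.

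Of 16 tested genes beside or between the clusters, 7 rose and 3 fell (25.2% and 23.6% of all tested genes did), with a median log2 fold change of 0.15. CD14, a receptor for bacterial lipopolysaccharide on the alpha side, rose from 2.99 ± 0.223 to 6.28 ± 1.33 CPM, a log2 fold change of 1.08 (adjusted p = 2.9e-06). ARAP3, a GTPase-activating protein on the gamma side, fell from 4.58 ± 0.419 to 1.40 ± 0.309 CPM, a log2 fold change of -1.72 (adjusted p = 4.8e-08). Chosen after their values were seen, DIAPH1, a formin beyond the gamma cluster, rose from 329 ± 8.21 to 550 ± 7.87 CPM, and TAF7, between the beta and gamma clusters, fell from 60.9 ± 2.55 to 55.1 ± 2.16 CPM (SD, n = 3 per group), with log2 fold changes of 0.74 and -0.15. Without control replicate 3, 4 of these neighbours rose and 1 fell, and 1 fell without shMUC1 replicate 1.

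Since clustered protocadherins are best known from neurons, neuronal markers were read in the same libraries. Of 15, 8 could be tested, 1 rose and 1 fell (25.2% and 23.6% of all tested genes did). STMN2 and DCX were at 0 in every library. The summed level of the 15 genes was 41.8 to 46.2 CPM in control and 40.2 to 43.3 CPM in shMUC1 libraries. SYP, a synaptic vesicle protein gene, rose from 0.570 ± 0.0734 to 1.69 ± 0.0826 CPM (log2 fold change 1.56, adjusted p = 0.000463). SNAP25, of the vesicle fusion machinery, fell from 5.74 ± 0.648 to 1.96 ± 0.160 CPM (SD, n = 3 per group, log2 fold change -1.56, adjusted p = 1.0e-08). Their part in the protocadherin values was not tested.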

How the data were processed

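RNA-seq libraries of MDA-MB-436/tet-MUC1 shRNA cells, 3 per group, were made with a stranded mRNA kit. Raw counts, with 1 row per gene symbol and 1 column per library and no normalization, were deposited by the authors. The submitters' processing notes name CASAVA 1.8.2, STAR 2.7.9a, featureCounts, DESeq2 1.24.0 and the build GRCh38.p7. The annotation release, strand setting and treatment of reads that overlap several genes were not given in the sources used here, and any of these could move counts between overlapping members. Even counts prevail among low values, as counting both mates of a pair would give, so halved counts were tried.

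Counts were fitted over the whole table with edgeR 4.0.16 (glmQLFit and glmQLFTest, TMM scaling, filterByExpr, group as the only term) in R 4.3.3. Tests were two-sided with Benjamini-Hochberg adjustment over 15355 genes, at a threshold of 0.05. SEs were taken from the fold change and its F statistic. CPM used TMM-scaled library sizes. The fit was tested on simulated data. Exons, all 54 members included, came from GENCODE release 29 and promoter windows from RefSeq. Alternatives were scaling by DESeq2 size factors or library totals, no filter or a minimum mean count of 50, the Wald test of DESeq2 1.42.0, a replicate block, halved counts (rounded up), a fold threshold of 1.5 and leaving out each library.

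The members and gene lists were chosen with earlier results of these data known. Members past the threshold and the 2 with the highest mean CPM in each of alpha, beta, gamma A, gamma B and gamma C were to be named with values in every library. Of each list, the called genes with the largest rise and fall were named, with CTCF, RAD21, SMCHD1, DNMT3B and MUC1. Libraries with the same replicate number did not deviate together (correlations 0.018, -0.031 and -0.036).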

Additional observations from a re-analysis of the deposited data

How the results depend on the processing

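The fall of MUC1 was called in all 13 alternatives (log2 fold change -1.02 to -0.75), and 0 members were called higher in any. Of the 14 called members, 8 stayed called wherever tested (PCDHAC2, PCDHB5, PCDHB16, PCDHGA9, PCDHGB1, PCDHGB2, PCDHGB5 and PCDHGB6). The number called lower was 6 at a minimum mean of 50 counts, where 9 members were tested, 10 with DESeq2, 12 with halved counts, 16 with no filter, and 9 to 16 when a library was left out, the 9 without shMUC1 replicate 2. Past 2-fold it was 2 at a minimum mean of 50 counts, 6 with halved counts, 7 with DESeq2, 11 with no filter, and 5 to 11 when a library was left out. With halved counts 20 members were tested, and PCDHB9, PCDHGA6 and PCDHGB7 were not among them. The median log2 fold change was -0.42 at a minimum mean of 50 counts, -0.71 with halved counts and -1.08 to -0.70 when a library was left out. The gamma C sum turned from -0.083 to 0.0044 without control replicate 3 (-0.13 to 0.0044 over the libraries left out). PCDHA4 turned to 0.096 without shMUC1 replicate 3 (-0.68 to 0.096), PCDHGC3 to -0.038 without control replicate 2 and -0.036 without shMUC1 replicate 2 (-0.038 to 0.077), CTCF to -0.0030 with library totals and -0.032 without control replicate 3 (-0.032 to 0.056), and RAD21 to -0.0045 with library totals, -0.00079 at a minimum mean of 50 counts and -0.015 without control replicate 3 (-0.015 to 0.036). The cause was not tested. With the replicate block, 14 members were called lower, the same 14, 9 past 2-fold, with a median of -0.85, and of the genes named PSENEN was not called (adjusted p = 0.0609). The libraries share only a number (correlations 0.018, -0.031 and -0.036), so no pairing was assumed. Depth limits the 29 members not tested, which had at most 19 counts in any library.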

Other observations

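Pseudogene rows within the beta and gamma clusters were outside the rule for members, and their values were low. PCDHGB8P was tested and not called, at 8, 14 and 12 counts in control and 14, 23 and 10 in shMUC1 libraries (log2 fold change 0.46, adjusted p = 0.436 with the edgeR quasi-likelihood test). PCDHB18P had 6, 4 and 10 counts in control and 4, 5 and 0 in shMUC1 libraries. PCDHB19P had 9, 2 and 4 counts in control and 4, 8 and 7 in shMUC1 libraries, and PCDHGB9P 6, 17 and 4 and then 2, 8 and 4. PCDHB17P had 2 counts in control replicate 1 and 0 in the other libraries. Reads of these rows could have come from the near-identical coding members, which was not tested.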
